A study of Mus musculus with 2 samples.

Results

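The genes described here were 9 neutrophil granule and granule-associated genes of the 32285 genes listed in the count matrices. They were chosen by their symbols, and all 9 were found in both libraries: *Mpo*, *Elane*, *Prtn3* and *Ctsg* of the primary granules, *Camp*, *Ngp* and *Ltf* of the secondary granules, and the later *Mmp8* and *Retnlg*. The cells came from the fracture callus of wild-type mice with a femoral fracture, and the study's methods give the mice as male C57BL/6J aged 12 weeks. No mouse received a further treatment in this experiment as described. The series' design text names calluses taken 10 days (5 mice) and 20 days (5 mice) after the fracture, but neither library's labels give its day, so the libraries are called MGJ and MGJ2 and are never pooled or compared as times. The barcodes do not separate the mice, so each library counts as 1 sample, and its intervals cover counting error only.

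Neutrophils fill their granules in sequence while they mature in the marrow. Promyelocytes make the primary or azurophil granules, which carry myeloperoxidase (*Mpo*) and the serine proteases neutrophil elastase (*Elane*), proteinase 3 (*Prtn3*) and cathepsin G (*Ctsg*). Myelocytes and metamyelocytes make the secondary or specific granules, which carry the cathelicidin precursor (*Camp*), neutrophilic granule protein (*Ngp*) and the iron-binding protein lactoferrin (*Ltf*). *Mmp8* encodes neutrophil collagenase, and *Retnlg* encodes resistin-like gamma, a secreted protein of later neutrophils. The transcripts are best known from bone marrow, and a callus sample can hold marrow cells as well as blood neutrophils.

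The promoters are shown first because the 4 primary granule genes shared a short sequence that was looked for by design. Each window runs from 250 bases before to 50 bases after the gene's start as given by RefSeq on build GRCm38.p6, 5′ to 3′ on the gene's strand. Matches to 2 motifs are in capitals, on either strand: the PU.1-type AGGAAGT and the C/EBP-type TTNNGNAA, named after transcription factors of the granulocyte lineage. The windows of all 4 primary granule genes are printed, with *Ngp* for the secondary and *Mmp8* for the late genes.
Mpo (chr11:87793534-87793833, plus strand): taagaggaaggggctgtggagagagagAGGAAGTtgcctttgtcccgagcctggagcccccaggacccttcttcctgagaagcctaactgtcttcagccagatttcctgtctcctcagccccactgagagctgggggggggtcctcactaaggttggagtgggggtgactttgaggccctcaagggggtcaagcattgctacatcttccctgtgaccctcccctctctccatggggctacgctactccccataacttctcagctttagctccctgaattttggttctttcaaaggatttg
Elane (chr10:79886062-79886361, plus strand): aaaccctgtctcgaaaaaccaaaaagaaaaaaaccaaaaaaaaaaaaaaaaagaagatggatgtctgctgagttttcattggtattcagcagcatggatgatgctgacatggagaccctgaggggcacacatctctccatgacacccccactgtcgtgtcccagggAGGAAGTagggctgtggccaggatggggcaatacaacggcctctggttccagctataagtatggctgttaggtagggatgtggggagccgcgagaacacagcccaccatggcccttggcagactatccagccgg
Prtn3 (chr10:79879417-79879716, plus strand): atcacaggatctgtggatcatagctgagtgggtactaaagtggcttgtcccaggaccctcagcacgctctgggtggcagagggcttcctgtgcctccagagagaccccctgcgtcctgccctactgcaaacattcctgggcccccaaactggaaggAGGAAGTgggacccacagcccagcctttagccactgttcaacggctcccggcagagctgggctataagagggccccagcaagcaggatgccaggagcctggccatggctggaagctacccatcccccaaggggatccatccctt
Ctsg (chr14:56102525-56102824, minus strand): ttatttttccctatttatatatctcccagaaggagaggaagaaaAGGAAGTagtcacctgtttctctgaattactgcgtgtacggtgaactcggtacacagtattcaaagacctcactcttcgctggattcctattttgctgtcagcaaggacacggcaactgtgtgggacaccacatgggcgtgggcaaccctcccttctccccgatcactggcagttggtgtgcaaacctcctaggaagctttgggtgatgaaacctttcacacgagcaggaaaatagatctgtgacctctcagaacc
Ngp (chr9:110419558-110419857, plus strand): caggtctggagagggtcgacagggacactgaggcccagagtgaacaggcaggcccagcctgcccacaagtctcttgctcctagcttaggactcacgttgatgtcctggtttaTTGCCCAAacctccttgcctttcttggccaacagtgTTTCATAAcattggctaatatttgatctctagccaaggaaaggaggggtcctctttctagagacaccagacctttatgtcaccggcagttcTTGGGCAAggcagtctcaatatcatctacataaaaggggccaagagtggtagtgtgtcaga
Mmp8 (chr9:7558179-7558478, plus strand): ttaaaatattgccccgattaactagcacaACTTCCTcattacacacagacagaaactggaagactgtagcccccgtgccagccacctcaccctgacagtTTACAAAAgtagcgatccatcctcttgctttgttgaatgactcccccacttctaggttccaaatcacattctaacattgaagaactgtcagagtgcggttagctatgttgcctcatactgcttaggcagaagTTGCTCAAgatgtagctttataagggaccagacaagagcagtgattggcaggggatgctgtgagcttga

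AGGAAGT was present once in each of the 4 primary granule windows, always on the gene's own strand, and in 9.35% of all 32817 promoter windows. Its first base lay at -223 in *Mpo*, -84 in *Elane*, -94 in *Prtn3* and -206 in *Ctsg*, counted from the RefSeq start. Among the other 5 members it was found in *Mmp8* alone, on the opposite strand. TTNNGNAA was found in none of the 4 primary granule windows and in none for *Camp*, whereas *Ngp* held 3 matches, *Ltf* and *Mmp8* 2 each, and *Retnlg* 1. That motif occurs in 40.7% of all windows. A match is only a run of letters, and binding was not measured. By the annotation of GRCm38, *Prtn3* (chr10:79874476-79883174) and *Elane* (chr10:79886247-79888215) are neighbours on the plus strand, 3072 bases apart. The RefSeq window of *Prtn3* starts inside that annotated span, at a more downstream start. *Camp*, *Ngp* and *Ltf* lie on chromosome 9 with gaps of 570 kb and 596 kb between them, while *Mpo* is on chromosome 11, *Ctsg* on 14 and *Retnlg* on 16. All 9 are protein-coding.

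Library MGJ held 14295 barcodes and library MGJ2 8009, with 19 barcode sequences in both. After removal of barcodes with under 200 genes, over 20% mitochondrial UMIs or a doublet call, 13320 and 7584 cells remained. Cells were clustered without the granule genes, and clusters were named from marker lists that leave out the 9 members. The myeloid progenitor-like class (*Kit*, *Cd34*, *Myb*, *Ms4a3*) held 79 cells of MGJ and 176 of MGJ2, with median depths of 16699 and 29687 UMIs per cell. In 1 of its clusters, with 32 and 77 of these cells, *Cd34* was nearly absent and *Cebpe* of the immature list was present. The immature neutrophil-like class (*Cebpe*, *Ly6g*, *Itgb2l*) held 446 and 398 cells at 6830 and 10010 UMIs. The mature neutrophil-like class (*Cxcr2*, *Csf3r*, *Trem1*) held 696 and 2018 cells at 2145 and 2387 UMIs. In MGJ 386 of these cells formed a cluster led by interferon-induced genes, with *Cxcr2* below its level in the largest immature cluster. Another 188 formed a cluster with no gene of the mature list among its leading genes. A further 3853 cells of MGJ fell in clusters 0 and 4, whose best list was mature neutrophil but which were left unnamed for a low depth, 1802 UMIs at the median, together with no marker of that list among their leading genes. The named cluster 2 had a lower median in MGJ, 1562 UMIs, and was led by *Acod1* and *Csf3r* of the list. They are given apart as the low-UMI neutrophil clusters. Classes differ in gene content and depth at once, so levels are given as counts per 1000000 UMIs of the class (CPM). They are relative to all transcripts of the class, and fewer molecules per cell cannot be told apart from a larger total of other transcripts.

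The 9 genes took a large part of all transcripts at the immature stage. They made up 9.49% of the UMIs of immature neutrophil-like cells in MGJ and 10.1% in MGJ2. The progenitor-like share was 1.90% and 2.08%, and the mature share 2.09% and 2.26%. In the low-UMI neutrophil clusters of MGJ it was 0.333%, and in chondrocyte-like cells 0.0208% and 0.0791%.

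**Figure D1:**
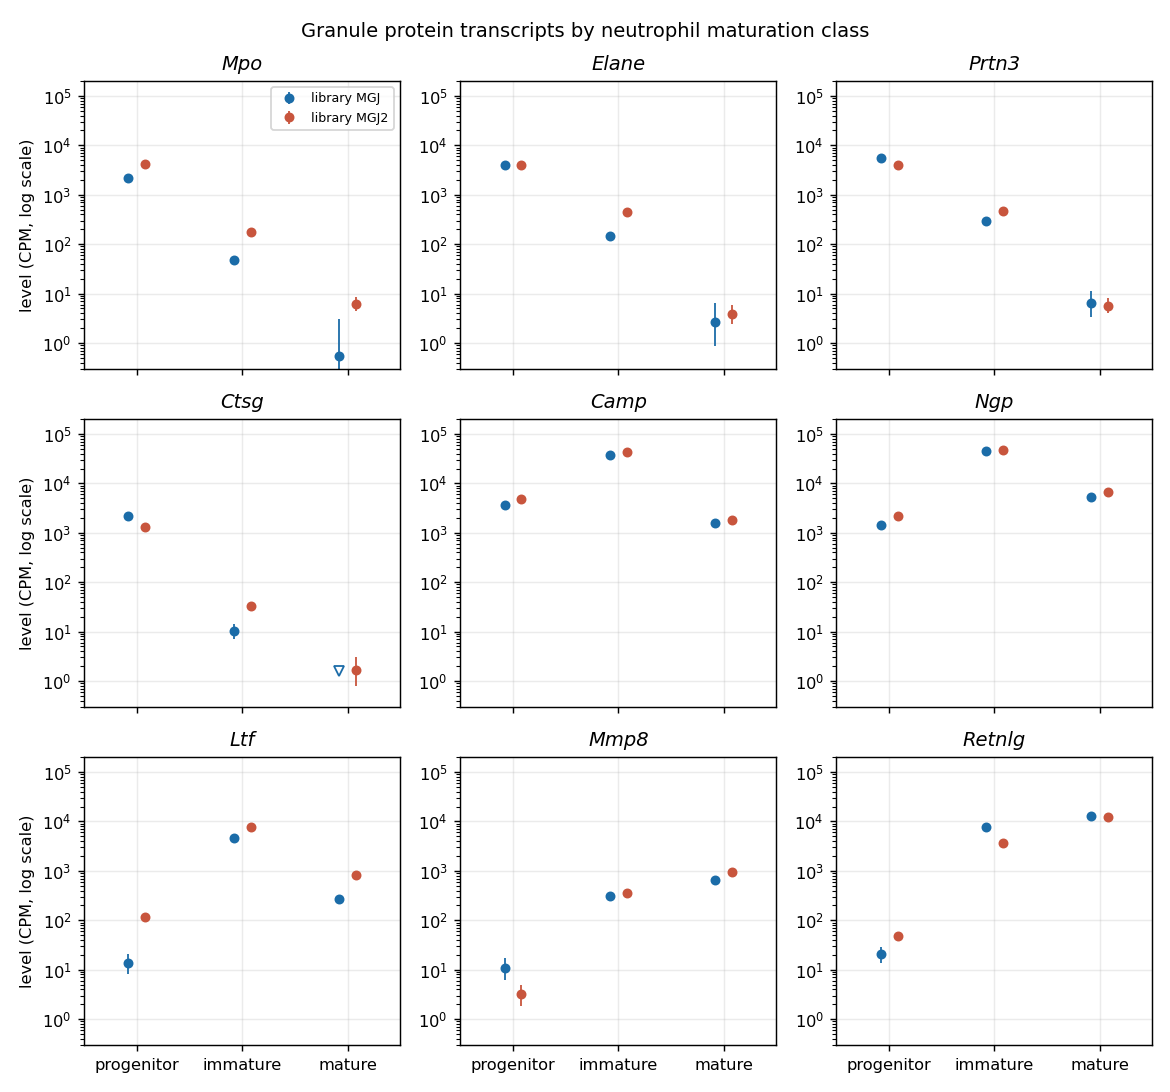
Level of each of the 9 genes in CPM (log scale) in the progenitor-like, immature and mature neutrophil-like classes of library MGJ (blue) and MGJ2 (red). Bars are exact Poisson 95% intervals, which cover counting error only, and the open triangle marks a class with 0 UMIs, drawn at the level of 3 UMIs. The 4 primary granule genes are highest in progenitors, *Camp*, *Ngp* and *Ltf* in immature cells, and *Mmp8* and *Retnlg* in mature cells, in both libraries. The order of *Mmp8* and *Retnlg* does not hold in every mature cluster.

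The primary granule genes were highest in progenitor-like cells. Summed, 13181 of their 20632 UMIs there in MGJ and 48031 of 77957 in MGJ2 lay in the cluster that nearly lacked *Cd34*. The other progenitor-like cluster had the 4 genes summed at 7829 and 8373 CPM, against 494 and 1124 in the immature class. *Elane*, the elastase, stood at 3942 CPM in progenitor-like cells of MGJ, 148 in immature and 2.72 in mature cells, and at 4022, 451 and 3.87 in MGJ2. *Prtn3* followed the same order, with 5664, 289 and 6.52 in MGJ and 4074, 468 and 5.72 in MGJ2. *Mpo* had 2224, 46.8 and 0.543 in MGJ, the last resting on 1 UMI, and 4215, 172 and 6.22 in MGJ2. *Ctsg* had 2140 CPM against 10.3 in immature cells of MGJ and 1324 against 32.6 in MGJ2. No *Ctsg* UMI was found in mature cells of MGJ, which puts the immature level at least 6.31-fold higher at a floor of 3 UMIs. Between progenitor-like and immature cells the ratio ran from 19.6 (95% interval 18.3 to 20.9) for *Prtn3* to 208 (150.0 to 298) for *Ctsg* in MGJ. In MGJ2 it ran from 8.70 (8.35 to 9.08) for *Prtn3* to 40.6 (34.8 to 47.5) for *Ctsg*. The 4 genes summed gave ratios of 28.3 (26.9 to 29.7) and 12.1 (11.8 to 12.5). These intervals cover counting only, and other ways of clustering, naming and scaling gave 4.48 to 45.3 in MGJ and 6.81 to 149.7 in MGJ2. All 4 were at least 2-fold higher in progenitor-like cells in both libraries, where 41.6% of 5707 genes were in MGJ and 39.1% of 8737 genes in MGJ2. The median log2 ratio over the 4 was 4.97 and 3.83, against 0.51 and 0.43 over all genes with enough UMIs.

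The secondary granule genes were highest in immature neutrophil-like cells. *Camp* stood at 3590 CPM in progenitor-like, 37062 in immature and 1609 in mature cells of MGJ, and at 4848, 42330 and 1815 in MGJ2. *Ngp* had 1427, 44785 and 5216 in MGJ and 2170, 46327 and 6803 in MGJ2. *Ltf*, the lactoferrin gene, had 13.5, 4542 and 273 in MGJ and 118, 7720 and 823 in MGJ2. *Camp* was thus higher in progenitor-like than in mature cells, while *Ngp* and *Ltf* were higher in mature than in progenitor-like cells, in both libraries. These orders depended on single clusters. In MGJ 5292 of the 5302 progenitor-like *Camp* UMIs lay in a cluster of 32 cells. A mature cluster of 188 cells held 2923 of the 2963 mature ones. There *Camp* was at 4109, above the progenitor-like class, and in MGJ2 it was at 8283 in a mature cluster of 169 cells, also above that class. In the other mature clusters it lay below that class. In MGJ the levels of *Ngp* and *Ltf* in mature cells rested on the same cluster of 188 cells, with 9504 *Ngp* and 483 *Ltf* UMIs. In the other 2 mature clusters of MGJ *Ngp* was at 78.6 and 134, below its progenitor-like level, and *Ltf* at 20.2 and 8.404, on either side of it. In MGJ2 clusters of 169 and 230 cells held 30997 and 8303 of the 40444 mature *Ngp* UMIs. They held 4171 and 556 of the 4891 *Ltf* UMIs. In the largest mature cluster of MGJ2, with 1592 of 2018 cells, *Ngp* was at 303 and *Ltf* at 44.1. Both lay below their progenitor-like levels. The 3 genes summed were 12.2-fold (12.0 to 12.4) higher in immature than in mature cells of MGJ and 10.2-fold (10.1 to 10.3) higher in MGJ2. With the 188-cell cluster left unnamed the ratio in MGJ was 603, and over the alternatives it ran from 6.75 to 616 in MGJ and from 10.2 to 34.9 in MGJ2. The 3 genes and *Mmp8* and *Retnlg* were all at least 2-fold lower in progenitor-like than in immature cells, where 11.4% of genes were in MGJ and 8.78% in MGJ2. For *Ltf* that difference was 335-fold (217 to 549) in MGJ and 65.3-fold (60.5 to 70.6) in MGJ2, and for *Camp* 10.3-fold (10.0 to 10.6) and 8.73-fold (8.62 to 8.84). From immature to mature cells, 6 of the 8 members with enough UMIs were at least 2-fold lower in MGJ and 7 of 9 in MGJ2, beside 22.2% and 40.9% of all genes.

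*Mmp8* and *Retnlg* continued into the mature class. *Mmp8*, the collagenase gene, stood at 10.8 CPM in progenitor-like, 316 in immature and 655 in mature cells of MGJ, and at 3.15, 357 and 970 in MGJ2. *Retnlg* had 20.3, 7692 and 13147 in MGJ and 48.1, 3587 and 12208 in MGJ2. The immature level of *Mmp8* was 0.482 times (0.444 to 0.524) the mature level in MGJ and 0.368 times (0.349 to 0.388) in MGJ2. For *Retnlg* the ratio was 0.585 (0.575 to 0.595) and 0.294 (0.289 to 0.299). *Mmp8* alone passed 2-fold in MGJ and both did in MGJ2, beside 21% and 20.4% of all genes that were at least 2-fold higher in mature cells. In MGJ this order rested on the same cluster. It had 188 of the 696 mature cells and held 23203 of the 24211 *Retnlg* UMIs and 1070 of the 1207 *Mmp8* UMIs, and its leading genes included *Ly6g* of the immature list and none of the mature list. With that cluster left unnamed, the ratio turned to 2.61 for *Mmp8* and 8.63 for *Retnlg*. With the low-UMI clusters counted as mature, the MGJ ratios were 1.21 and 1.69. Weighting each cell equally gave 1.09 and 1.19 in MGJ, and 1.24 for *Mmp8* and 0.877 for *Retnlg* in MGJ2. In MGJ2 the clusters of 169 and 230 cells held 29753 and 32465 of the 72575 mature *Retnlg* UMIs. Of the 5765 mature *Mmp8* UMIs they held 2780 and 2049. The largest cluster, with 1592 of the 2018 mature cells, had *Retnlg* at 2801 and *Mmp8* at 252. Both were below the immature levels of MGJ2. How these 2 genes stand between an immature and a mature class therefore depends on where the class is divided, and the clusters are given singly.

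The single clusters of the 3 classes with at least 30 cells were then put in order within each library, by a score that the members do not enter, the mean log2 level of the mature list minus that of the progenitor list. This ordering was chosen after the data were seen, and it is not a measured time. It gave progenitor-like clusters P1 and P2, immature clusters I1, I2 and I3, and mature clusters M1, M2 and M3 in each library. Of the genes given next, *Cd34* and *Cxcr2* enter that score, and *Cebpe* and *Ly6g* belong to the immature list that named classes. Their levels describe the clusters and are no separate support for the order. P1 carried *Cd34* at 89.3 CPM in MGJ and 172 in MGJ2, and P2 had it at 0 and 0.467. *Cebpe*, a C/EBP factor of later granulocyte precursors, stood at 21.0 in P1, 324 in P2 and 205 in I1 of MGJ, and at 57.1, 362 and 389 in MGJ2. The dividing-cell gene *Mki67* was highest in I1, at 347 and 644. *Ly6g*, a surface marker of neutrophils, stood at 109 in I1 and 379 in I2 of MGJ, and at 94.7 and 473 in MGJ2. The chemokine receptor gene *Cxcr2* was 95.3 in I2 of MGJ and 102.8 in I2 of MGJ2. It was 375 in M2 of MGJ, and 657 in M1 and 966 in M2 of MGJ2. M1 of MGJ was led by the interferon-induced genes *Ifit1*, *Rsad2* and *Isg15* and had *Cxcr2* at 38.2 and *Ly6g* at 21.3, so M1 is not the same kind of cluster in both libraries.

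Along that order the members differed from cluster to cluster. P1, with 47 and 99 cells, had *Mpo* at 1753 and 3456 CPM, *Elane* at 1271 and 1651, and *Camp* at 10.5 in MGJ and 312 in MGJ2. In P2, with 32 and 77 cells, *Elane* was 6.91-fold and 4.83-fold higher, whereas *Mpo* was 1.76-fold and 1.59-fold higher and *Ctsg* 1.75-fold and 1.45-fold. *Camp* was already at 10079 and 12413 there, *Ngp* at 3986 and 5378, and *Ltf* at 34.3 and 250.1. Primary and secondary granule transcripts thus stood side by side in P2. From P2 to I1 *Camp* was 4.83-fold and 3.77-fold higher, *Ngp* 11.9-fold and 7.86-fold, and *Ltf* 128-fold and 23.7-fold. Of the 3 genes, *Camp* in P2 was nearest to its I1 level and *Ltf* farthest from it. The median depth was 15317 and 27154 UMIs in P2, and 18511 and 32482 in P1. Doublet calls had been removed, though those of MGJ depended on the random seed. Whether undetected doublets add to P2 was not tested.

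In I1, with 136 cells of MGJ and 152 of MGJ2, the primary granule genes were lower than in P2 by unequal amounts. *Ctsg* was 146-fold lower in MGJ and 31.3-fold lower in MGJ2, and *Mpo* 31.1-fold and 20.1-fold. *Elane* was 27.8-fold and 11.04-fold lower, and *Prtn3* 16.8-fold and 9.80-fold. The order of the 4 genes was the same in both libraries. *Mmp8* was at 9.22 and 5.86 CPM, near its level in the progenitor-like class, while *Retnlg* had reached 1311 and 790.

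I2, the *Ly6g*-rich cluster of 260 cells in MGJ and 202 in MGJ2, was the first with *Mmp8* well above its progenitor level. *Mmp8* was 67.6-fold (40.8 at the lower bound) higher than in I1 in MGJ and 141-fold (89.96 at the lower bound) in MGJ2, at 624 and 826 CPM. *Retnlg* was 10.5-fold and 9.49-fold higher, at 13744 and 7498. The 4 primary granule genes summed were 106-fold and 107-fold lower than in I1. *Elane* had 514 UMIs in I1 of MGJ and 0 in I2, and so was at least 160-fold lower at a floor of 3 UMIs. *Camp* was 1.76-fold and 1.41-fold lower, *Ngp* 1.07-fold lower in MGJ and 1.30-fold higher in MGJ2, and *Ltf* 1.08-fold and 1.79-fold higher. The secondary granule genes summed were 1.31-fold lower in MGJ and 1.04-fold higher in MGJ2 over the same step.

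*Mmp8* and *Retnlg* stood highest in the *Cxcr2*-bearing clusters that still had *Ly6g*, which were M2 in MGJ (188 cells) and M1 and M2 in MGJ2 (169 and 230 cells). *Retnlg* reached 32618 CPM in M2 of MGJ, and 29562 and 31412 in M1 and M2 of MGJ2. *Mmp8* reached 1504 in M2 of MGJ, and 2762 and 1983 in M1 and M2 of MGJ2. In M2 of MGJ *Camp* was 6.74-fold, *Ngp* 3.33-fold and *Ltf* 6.98-fold lower than in I2. In MGJ2 they were 4.0-fold, 1.79-fold and 2.56-fold lower in M1 than in I2, and 17.4-fold, 6.85-fold and 19.8-fold lower in M2 than in I2. M3 of MGJ2 made up 1592 of its 2018 mature cells. There *Retnlg* was 11.2-fold lower than in M2 at 2801 CPM, *Mmp8* 7.87-fold lower at 252, and *Ngp* 26.5-fold lower at 303. In MGJ the interferon-gene cluster M1 (386 cells) had *Retnlg* at 408 and *Mmp8* at 102.2. The low-UMI clusters of MGJ also differed from each other, with *Retnlg* at 5673 in cluster 4 (1462 cells) and 375 in cluster 0 (2391 cells, led by *Ccl3*, *Ccl4* and *Tnf*).

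**Figure D2:**
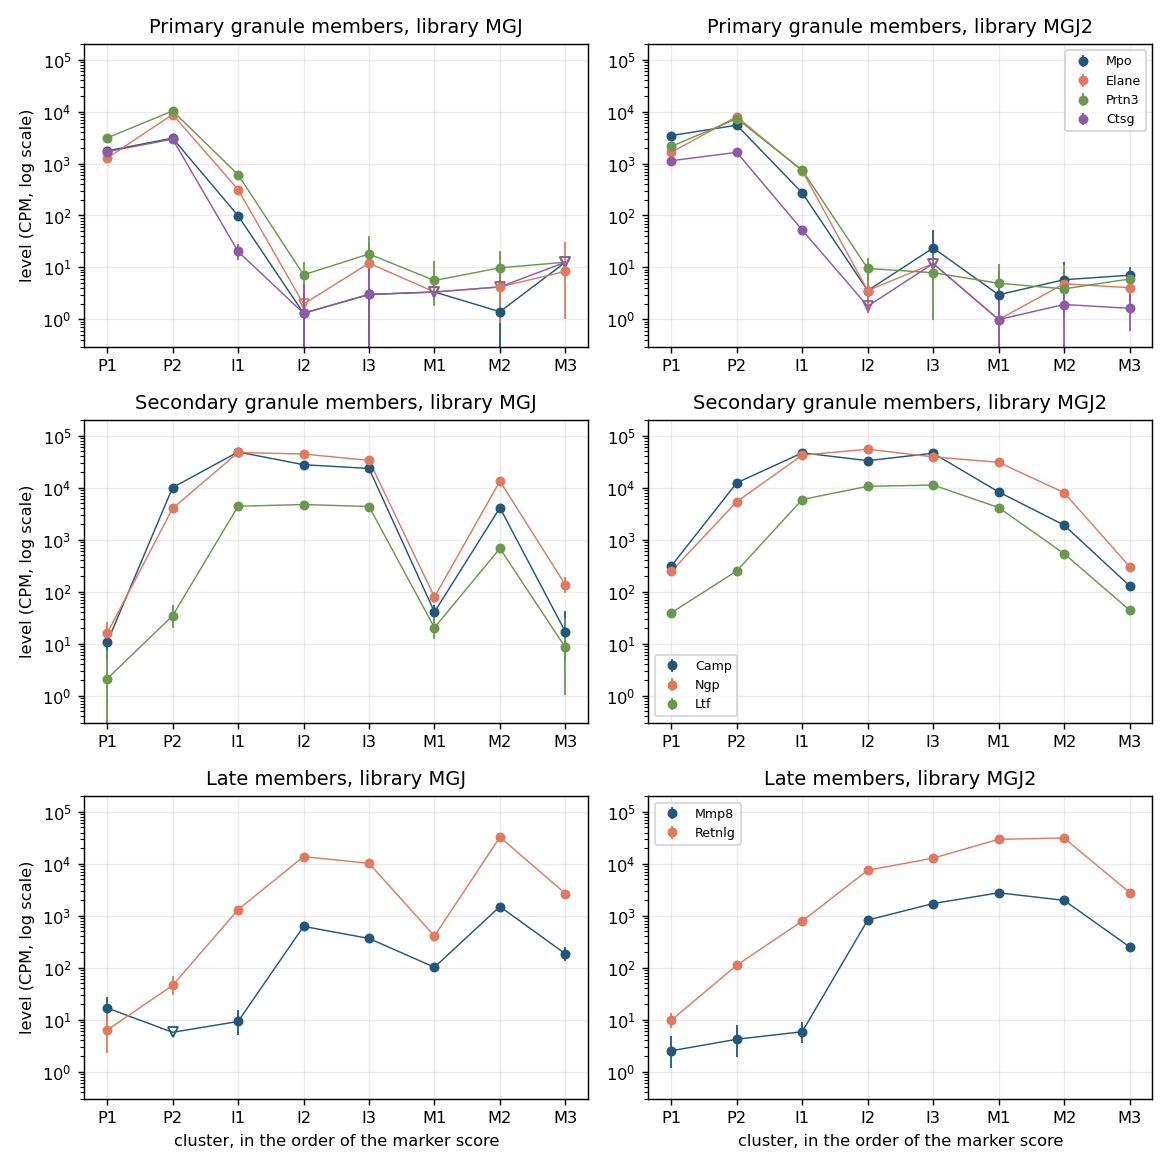
Levels of the members in CPM (log scale) in single clusters of the neutrophil series, P1 to M3 in the order of the marker score, for library MGJ (left) and MGJ2 (right). Points are clusters with Poisson 95% intervals, lines only join them, and open triangles mark 0 UMIs drawn at the level of 3 UMIs. The primary genes peak in P2, *Camp*, *Ngp* and *Ltf* within I1 to I3, and *Mmp8* and *Retnlg* in M2 of MGJ and in M1 or M2 of MGJ2.

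The shares of cells carrying each set were compared at equal depth. Each cell was thinned to 1000 UMIs, which left out 2 and 4 progenitor-like, 2 and 0 immature, and 40 and 44 mature cells in MGJ and MGJ2. A primary granule UMI was found in 77.9% (exact 95% interval 67.0 to 86.6) of progenitor-like cells of MGJ and 78.5% (71.6 to 84.4) of MGJ2, in 6.76% and 10.1% of immature cells, and in 0.762% and 1.77% of mature cells. T cell-like cells, which should lack these genes, had one in 0.893% and 1.87%, at median depths of 3100 and 5133 UMIs before thinning. The mature shares lay at or below that background. A secondary granule UMI was found in 28.6% and 36.6% of progenitor-like, 99.3% and 98.7% of immature and 31.6% and 29.9% of mature cells, with 6.25% and 9.58% in T cell-like cells. Without thinning the secondary shares were 59.5% and 87.5% in progenitor-like, 99.3% and 99.7% in immature and 35.2% and 45.1% in mature cells. T cell-like cells then had 14.9% and 38.0%, so the mature share of MGJ2 was near that background. Primary and secondary transcripts were found together in 28.6% and 34.9% of progenitor-like cells, and no immature cell of the 444 and 398 had a primary UMI without a secondary one. That absence was nearly given, since 99.3% and 98.7% of immature cells had a secondary UMI.

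*Mmp8* was not found in any thinned progenitor-like cell, of 77 and 172, which allows up to 4.68% and 2.12% of cells with a UMI at that depth. Unthinned, it was found in 2.53% and 3.41% of progenitor-like cells. It was found in 25.9% and 26.1% of immature and in 24.1% and 27.9% of mature cells, shares that overlap in their intervals in each library. *Retnlg* was found in 71.6% and 62.6% of immature and in 38.3% and 51.3% of mature cells. Fewer mature cells carried *Retnlg* although the mature level in CPM was higher, so no order is read from the shares of *Retnlg*. Unthinned, *Mmp8* was found in 39.9% and 38.7% of immature and 33.8% and 39.2% of mature cells, and *Retnlg* in 91.3% and 89.4% of immature and 42.5% and 61.2% of mature cells.

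**Figure D3:**
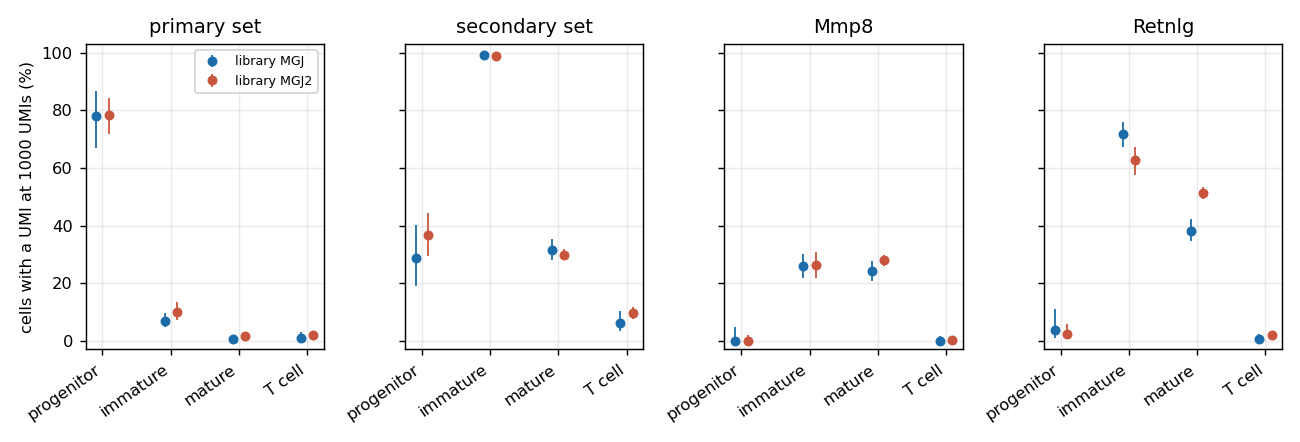
Share of cells (percent) with at least 1 UMI of the primary set (*Mpo*, *Elane*, *Prtn3*, *Ctsg*), the secondary set (*Camp*, *Ngp*, *Ltf*), *Mmp8* or *Retnlg* after thinning every cell to 1000 UMIs, in libraries MGJ (blue) and MGJ2 (red). Bars are exact binomial 95% intervals over cells, and T cell-like cells show the background. The primary set falls from 77.9% and 78.5% of progenitor-like cells to 0.762% and 1.77% of mature cells, and the secondary set is in nearly every immature cell.

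Other granule genes from fixed lists were set beside the members. Of 8 other secondary granule genes, 7 in MGJ and 8 in MGJ2 were at least 2-fold lower in progenitor-like than in immature cells, beside 11.4% and 8.78% of all genes. In each library 7 of the 8 were at least 2-fold higher in immature than in mature cells, beside 22.2% and 40.9% of all genes. *Chil3*, a chitinase-like protein of specific granules, stood at 553, 7794 and 437 CPM in the 3 classes of MGJ and at 659, 9463 and 492 in MGJ2. *Lcn2*, the iron-siderophore-binding lipocalin, had 13560 in immature and 6337 in mature cells of MGJ, and 9615 and 2724 in MGJ2. The exception in both libraries was *Olfm4*, with 152 in immature and 134 in mature cells of MGJ and 152 and 121 in MGJ2. Of 6 other gelatinase granule and surface genes, 6 in MGJ and 5 in MGJ2 were at least 2-fold lower in progenitor-like than in immature cells, beside the same 11.4% and 8.78%. *Mmp9*, gelatinase B, stood at 1.35, 179.7 and 223 in MGJ and 1.22, 180.5 and 532 in MGJ2. Between immature and mature cells, 2 of the 6 in MGJ and 4 in MGJ2 were at least 2-fold higher in mature cells. All genes had shares of 21% and 20.4%. In MGJ *Mmp25* was at least 2-fold lower in mature cells, beside 22.2% of all genes, and *Mmp9* did not pass 2-fold.

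Of 4 tested other primary granule genes, *Prss57* and *Gusb* were at least 2-fold higher in progenitor-like than in immature cells in both libraries, a share near the 41.6% and 39.1% of all genes. *Lyz2* of the same 4 was at least 2-fold lower in both libraries, beside 11.4% and 8.78% of all genes. *Prss57*, a further azurophil serine protease, stood at 124, 13.7 and 1.63 CPM in MGJ and 123, 27.3 and 1.51 in MGJ2. *Ctsc*, the protease that activates elastase, proteinase 3 and cathepsin G, was 10.6-fold and 5.25-fold higher in progenitor-like than in immature cells. Within the progenitor-like class it stood at 272 in P1 and 24.8 in P2 of MGJ, and at 93.2 and 11.2 in MGJ2. It was also at least 2-fold higher in mature than in immature cells in both libraries, beside 21% and 20.4% of all genes. The cystatin gene *Cst7* was 45.9-fold and 15.2-fold higher in progenitor-like than in immature cells. *Serpinb1a*, an inhibitor of these proteases, was highest in P2 of MGJ (558) and in I1 of MGJ2 (563), and was 28.7-fold and 35.1-fold lower in mature than in immature cells. In the same list of 6 genes *Stfa1* in both libraries and *Stfa2* in MGJ went the other way from *Ctsc* and *Cst7*. They were at least 2-fold lower in progenitor-like than in immature cells, beside 11.4% and 8.78% of all genes. *Slpi* was at least 2-fold higher in mature than in immature cells in both libraries.

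Of 7 listed transcription factors, 5 in MGJ and 7 in MGJ2 had enough UMIs. At least 2-fold higher in progenitor-like than in immature cells were *Runx1* in MGJ and *Gfi1*, *Cebpa* and *Runx1* in MGJ2, beside 41.6% and 39.1% of all genes. *Cebpb* was lower in MGJ2, beside 8.78%. In both libraries *Cebpe* and *Cebpd* were at least 2-fold lower in mature than in immature cells, beside 22.2% and 40.9%. *Cebpb* and *Runx1* were at least 2-fold higher in mature cells, beside 21% and 20.4%. *Cebpa*, like *Gfi1*, is also a marker of the progenitor list. It was at 15.6 CPM in progenitor-like and 1.14 in immature cells of MGJ, and at 37.1 and 1.73 in MGJ2. In MGJ it had fewer than 50 UMIs in both classes together and was not counted. In MGJ2 it was also at least 2-fold lower in immature than in mature cells. *Cebpe*, also a marker of the immature list, was 15.9-fold and 37.2-fold lower in mature than in immature cells. Of 10 cell cycle genes, 9 in MGJ and 10 in MGJ2 were at least 2-fold higher in immature than in mature cells, beside 22.2% and 40.9% of all genes. *S100a8* and *S100a9*, the calprotectin genes of the neutrophil cytosol, stood at 144874 and 178946 in immature cells of MGJ and at 131791 and 114766 in MGJ2, and both were at least 2-fold lower in mature cells. Taking the granule lists and calprotectin out of the total moved the immature to mature ratio to 0.707 and 0.4996 for *Mmp8* and to 0.858 and 0.399 for *Retnlg*.

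By the rule on likeness, the genes whose log2 levels over the classes followed the mean of the 4 primary members most closely were *Ms4a3* (Pearson's r 0.953 over 17 classes of MGJ and 0.973 over 13 of MGJ2), *Prss57* and *Plppr3*. For the secondary members they were *Chil3* (0.939 and 0.940), *Pram1* and *Mapk13*. For *Mmp8* they were *B430306N03Rik* (0.924 and 0.921), *Cd33* and *Fbxl5*, and for *Retnlg* *9830107B12Rik* (0.927 and 0.957), *Ly6g* and *Ankrd22*. *Ms4a3* and *Ly6g* also served to name classes. The classes share a library and its free RNA, so these values describe likeness only.

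Outside the neutrophil series, most of the members' UMIs sat in few cells. In 12 other classes of MGJ and 8 of MGJ2, monocyte-like and mast or basophil-like cells apart, the 5% of cells with the highest member level held from 28.3% to 97.6% and from 11.1% to 95.9% of the members' UMIs. Without those cells, chosen by the very level in question, the members summed to 27.6 to 56.1 CPM in MGJ and 42.2 to 132 in MGJ2. The 3 secondary genes made up 71.2% of that remainder in chondrocyte-like cells of MGJ and 73.1% in MGJ2, beside 76.0% and 76.3% of the members' UMIs in the whole libraries. Across those classes the secondary share ran from 52.5% to 84.6% in MGJ and from 65% to 77.9% in MGJ2, the lowest in macrophage-like cells of MGJ and endothelial-like cells of MGJ2.

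Some members stood higher in single classes. Over all monocyte-like cells *Mmp8* was at 133.8 CPM in MGJ and 81.4 in MGJ2, and *Prtn3* at 156 and 43.6. *Mmp8* was at 109.5 CPM (102.9 to 116) in monocyte-like cells of MGJ and 58.8 (54.8 to 62.9) in MGJ2 with the top 5% left out, against 0.879 (0.664 to 1.14) and 0.833 (0.227 to 2.13) in chondrocyte-like cells. In cells thinned to 1000 UMIs it was found in 10.2% (8.65 to 11.9) and 5.99% (4.86 to 7.30) of monocyte-like cells at median depths of 6628 and 9288, and in 0.278% and 0.532% of chondrocyte-like cells at 19805 and 25899. *Retnlg*, whose CPM in neutrophil-like cells was the higher of the 2, was at 16.8 and 10.3 in the same monocyte-like cells. *Prtn3* was at 29.4 (26.0 to 33.1) and 11.8 (10.1 to 13.8) in monocyte-like cells against 1.11 and 1.67 in chondrocyte-like cells. Its thinned share was 3.23% against 0.216% in MGJ, and in MGJ2 the shares were 1.04% and 1.06%, with *Prtn3* at 14.0 CPM (5.13 to 30.4) in endothelial-like cells there. *Mmp8* was also at 11.7 (9.54 to 14.2) in macrophage-like cells of MGJ. In all cells of the dividing monocyte-like cluster led by *Dmkn* and *Ly6c2* (69 and 66 cells) *Prtn3* reached 1132 and 346 CPM and *Elane* 366 and 212. The secondary genes stood higher still in that cluster, with *Camp* at 4288 and 2209 and *Ngp* at 4023 and 2917. A secondary UMI was found in 37.7% and 74.2% of its cells, and *Prtn3* in 69.6% and 63.6%.

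The mast or basophil-like class was counted in MGJ2 alone (106 cells, 15 in MGJ). Over all its cells *Mpo* was at 1044 CPM, *Ctsg* at 742, *Elane* at 292 and *Prtn3* at 235. With the 6 cells of the highest member level left out, *Mpo* was at 427 CPM (379 to 479) and *Ctsg* at 426 (378 to 478), while *Elane* was at 8.87 (3.25 to 19.3) and *Prtn3* at 29.6 (18.1 to 45.6). In T cell-like cells of MGJ2 *Mpo* was at 2.54 and *Ctsg* at 0.694. After thinning, *Ctsg* was found in 17.1% (10.5 to 25.7) and *Mpo* in 13.3% (7.49 to 21.4) of 105 such cells at a median depth of 3992, *Prtn3* in 1.90% and *Elane* in 0.952%. The low levels of *Elane* and *Prtn3* thus depend on leaving out those 6 cells, while the thinned shares use all cells deep enough. The class was named from *Mcpt8*, *Prss34*, *Cpa3* and *Fcer1a*, and *Ctsg* and *Mpo* were not used.

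**Figure D4:**
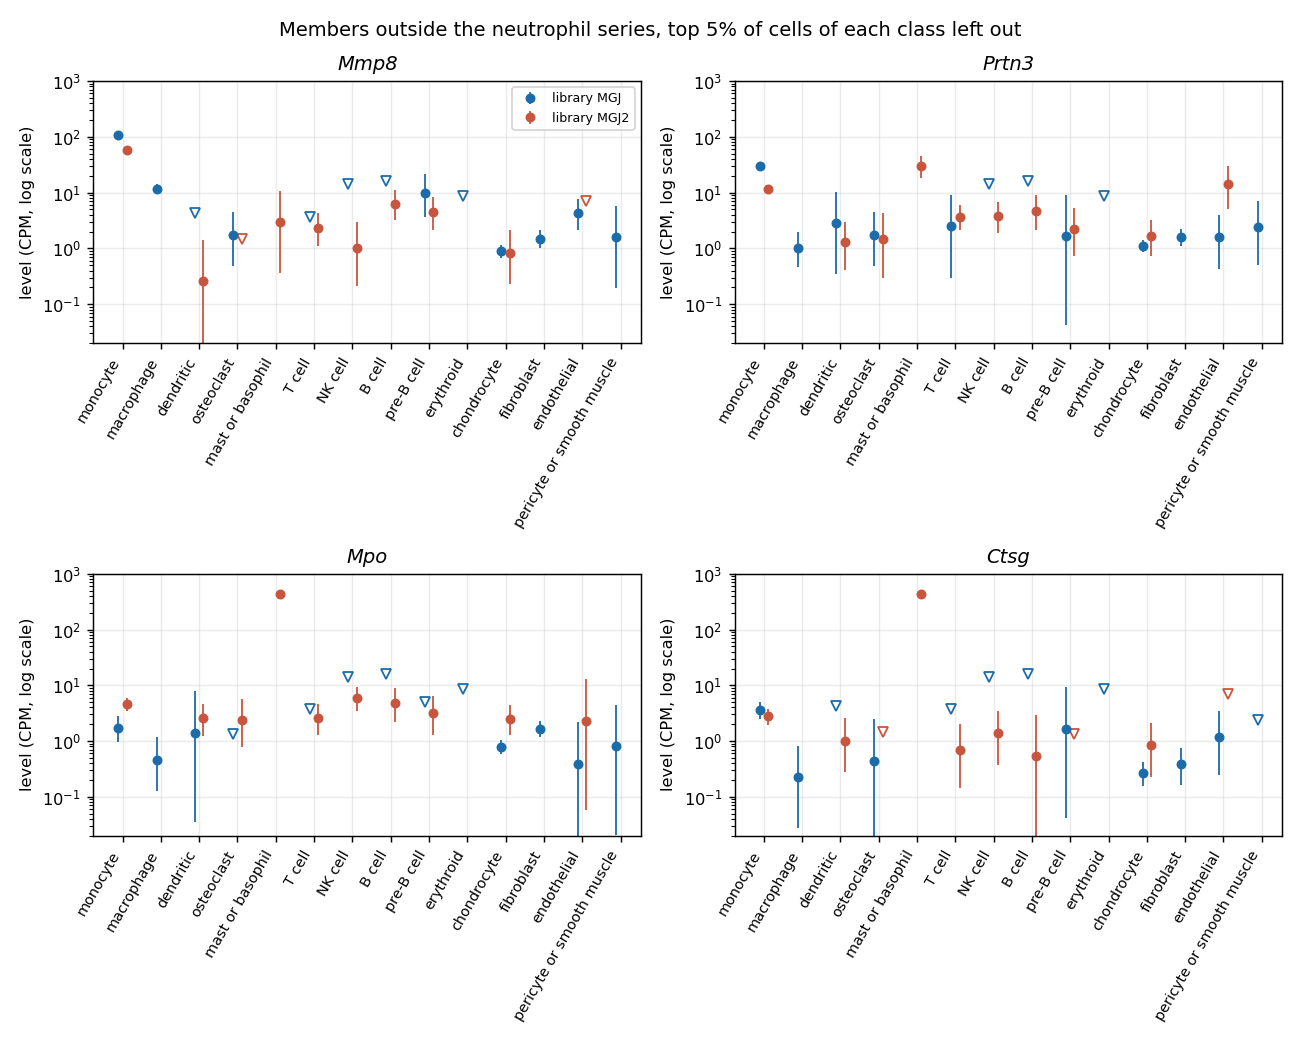
Levels of *Mmp8*, *Prtn3*, *Mpo* and *Ctsg* in CPM (log scale) in classes outside the neutrophil series, after leaving out the 5% of cells of each class with the highest member level, in libraries MGJ (blue) and MGJ2 (red). Bars are Poisson 95% intervals, open triangles mark 0 UMIs drawn at the level of 3 UMIs, and classes under 50 cells are not drawn. *Mmp8* stands out in monocyte-like cells of both libraries, and *Mpo* and *Ctsg* in mast or basophil-like cells of MGJ2. *Prtn3* stands out in monocyte-like cells of MGJ and, at a like level, in mast or basophil-like cells of MGJ2.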

How the data were processed

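Single cells of the callus were run on the 10x Chromium 3′ kit, version 3. The authors deposited a filtered matrix of UMI counts per gene and barcode for each library. The file headers name Cell Ranger 4.0.0, and the submitters' notes name GRCm38 and Seurat without their roles. From these counts, scanpy 1.11.5 clustered both libraries together (2000 variable genes, 30 components, 15 neighbours, Leiden resolution 1), with 36 granule-list genes kept out. Clusters whose best list was progenitor or immature were clustered again at resolution 1, a step added after seeing that these stages merged. Clusters were named from 22 marker lists. Scrublet was run at 0.8% doublets per 1000 barcodes and called 140 and 222. Its threshold in MGJ depended on the random seed, and the first seed tried marked no cell there. Levels are counts per 1000000 UMIs of a class (CPM) with exact Poisson intervals. Ratios have exact conditional binomial 95% intervals. A gene was counted as different at 2-fold, among genes with at least 50 UMIs in both classes together. Calls were tested only on simulated Poisson counts with planted changes larger than the calling threshold. Those counts hold no variation between cells or clusters, so they cannot show how the calls bear it. With 1 library of each kind and cells that are not replicates, no p-value is given. The members, lists and markers were chosen with earlier results of these data known. All 9 members are named, list genes may be named, and the 3 most similar genes per pattern are named by their correlation of log2(CPM + 10) over classes of at least 50 cells.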

Additional observations from a re-analysis of the deposited data

Results flagged for a closer look

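The barcodes removed from the comparisons, 975 in MGJ and 425 in MGJ2, carried all 4 groups of members. They had 113 CPM of the primary set in MGJ and 291 in MGJ2, 2601 and 6694 of the secondary set, 48.7 and 170 of *Mmp8*, and 495 and 1948 of *Retnlg*. Each value lay far above the level that 3 UMIs give, 0.811 and 0.992 CPM. In the kept cells of all classes the same values were 224 and 1516, 2719 and 10721, 43.3 and 157, and 594 and 1646. The removed barcodes include doublet calls and barcodes rich in mitochondrial UMIs, and no comparison was made with them.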

How the results depend on the processing

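Of 12 alternatives, 8 were planned and 4 were chosen after seeing the data. The values are ratios of CPM, MGJ first and MGJ2 second, of progenitor-like over immature cells for the primary set and of immature over mature cells for the secondary set, *Mmp8* and *Retnlg*. The values as reported are 28.3 and 12.1, 12.2 and 10.2, 0.482 and 0.368, and 0.585 and 0.294. Clustering at resolution 2 gave 4.48 and 9.22 for the primary set, 27.0 and 18.5 for the secondary set, 0.648 and 0.639 for *Mmp8* and 0.862 and 0.411 for *Retnlg*. With the granule genes left among the clustering genes, the primary ratio was 149.7 in MGJ2, the secondary 157 and 23.6, *Mmp8* 0.574 and 0.840, and *Retnlg* 0.876 and 0.537. With each library clustered on its own, the primary ratio was 10.8 in MGJ2, the secondary 26.3 and 17.2, *Mmp8* 1.36 and 0.566, and *Retnlg* 1.53 and 0.357, and no cluster of MGJ was named progenitor-like, so that ratio has no value. At no more than 10% mitochondrial UMIs, the primary ratio was 25.8 in MGJ, the secondary 6.75 and 14.3, *Mmp8* 0.318 and 0.538, and *Retnlg* 0.336 and 0.366. With doublet calls kept, they were 26.1 and 10.0, 7.65 and 14.7, 0.308 and 0.577, and 0.371 and 0.402. With every cell weighted equally, they were 45.3 and 25.6, 20.4 and 21.9, 1.09 and 1.24, and 1.19 and 0.877. With the low-UMI clusters named as mature, the secondary ratio was 46.5 and 10.4, and in MGJ *Mmp8* was 1.21 and *Retnlg* 1.69. With cells named one by one, the values were 23.3 and 6.81, 65.1 and 34.9, 1.77 and 0.978, and 2.04 and 0.642. With sub-clusters at resolution 0.5, they were 24.1 and 9.18, 616 and 15.1, 2.59 and 0.568, and 8.13 and 0.395. With clusters led by other markers left unnamed, the MGJ values were 603 for the secondary set, 2.61 for *Mmp8* and 8.63 for *Retnlg*. Per 1000000 UMIs outside the granule lists, they were 16.3 and 7.99, 17.8 and 13.8, 0.707 and 0.4996, and 0.858 and 0.399. With the top 5% of cells left out, the secondary ratio was 17.2 and 28.0, *Mmp8* 0.575 and 0.495, and *Retnlg* 0.783 and 0.352.

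The primary and secondary ratios stayed above 1 in both libraries under all alternatives that gave a value, while their size moved widely. The immature to mature ratios of *Mmp8* and *Retnlg* in MGJ crossed 1 under 6 alternatives, and that of *Mmp8* in MGJ2 under equal weights. For the single-member ratios over both contrasts, with those of *Mmp8* and *Retnlg* between immature and mature cells left aside, 209 recomputed values lay outside the interval of the reported ratio, 152 did not, and none crossed 1. The immature to mature ratio of *Ctsg* in MGJ has no value, since no mature cell had a UMI. The causes were not tested. No paired analysis was possible because the labels put neither library in a group and each library is a single sample. For the same reason no replicate could be left out. Depth limits the mature class, whose primary granule levels in MGJ rest on 18 UMIs.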
